A study of Rattus norvegicus with 6 samples.

Results

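Transcripts of 10 serotonin receptor genes (Htr1a, Htr1b, Htr1f, Htr2a, Htr2c, Htr4, Htr5a, Htr5b, Htr6 and Htr7) were followed by RNA sequencing in rat hippocampus. Each gene was taken by its symbol, which matched 1 row each, 10 of the 22062 protein-coding genes measured. The SPS group comprised 3 samples from Sprague Dawley rats put through single prolonged stress (SPS), a procedure used as a rodent model of post-traumatic stress. These rats were immobilised in a plastic container for 2 hours, swam for 20 minutes in water 40 cm deep at 24 °C, had a rest of 15 minutes and were anaesthetised until they lost consciousness. The Control group comprised 3 samples from Sprague Dawley rats that stayed in their home cages and were not handled. The labels give neither the age or sex of the rats nor the time between stress and collection, and do not say that each sample is a separate animal. All p-values therefore measure only the spread between these samples, which may be technical.

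Serotonin is released in the hippocampus by axons of raphe neurons and acts on several families of receptors. The Htr1 family and Htr5a couple to inhibitory Gi/o proteins that lower cyclic AMP, the Htr2 family couples to Gq and phospholipase C, and Htr4, Htr6 and Htr7 couple to Gs and raise cyclic AMP. Htr1a is among the main serotonin receptors of hippocampal pyramidal and granule neurons, whereas Htr2c is found both on neurons and, at high density, on the epithelium of the choroid plexus, which secretes cerebrospinal fluid. In bulk tissue, fewer cells of a type and less RNA per cell cannot be told apart.

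None of the receptors passed the test between SPS and Control. Levels are given as CPM, reads scaled to a common library size, unless FPKM is named. Of the 10 genes, 8 had enough reads to be tested, and 0 of the 8 passed edgeR's quasi-likelihood test at an adjusted p under 0.05, as did 0% of the 12441 genes tested. At an unadjusted p under 0.05 there were 0 of the 8 receptors, against 0.338% of all genes. DESeq2 and limma on log2(FPKM + 1) also called 0 receptors. Before adjustment, DESeq2 put Htr2c alone under 0.05 and limma put 0 receptors there. The median log2 fold change of the 8 receptors, SPS minus Control, was −0.11, and that of all genes tested was −0.02. What the values did show was 1 SPS library, replicate 2, in which 7 of the 10 receptors had 0 reads while Htr2c was at its highest. Of the 8 receptors tested, 5 were at 0 there, beside 7.94% of all genes tested, and 9758 of all 22062 genes measured were at 0.

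**Figure D1:**
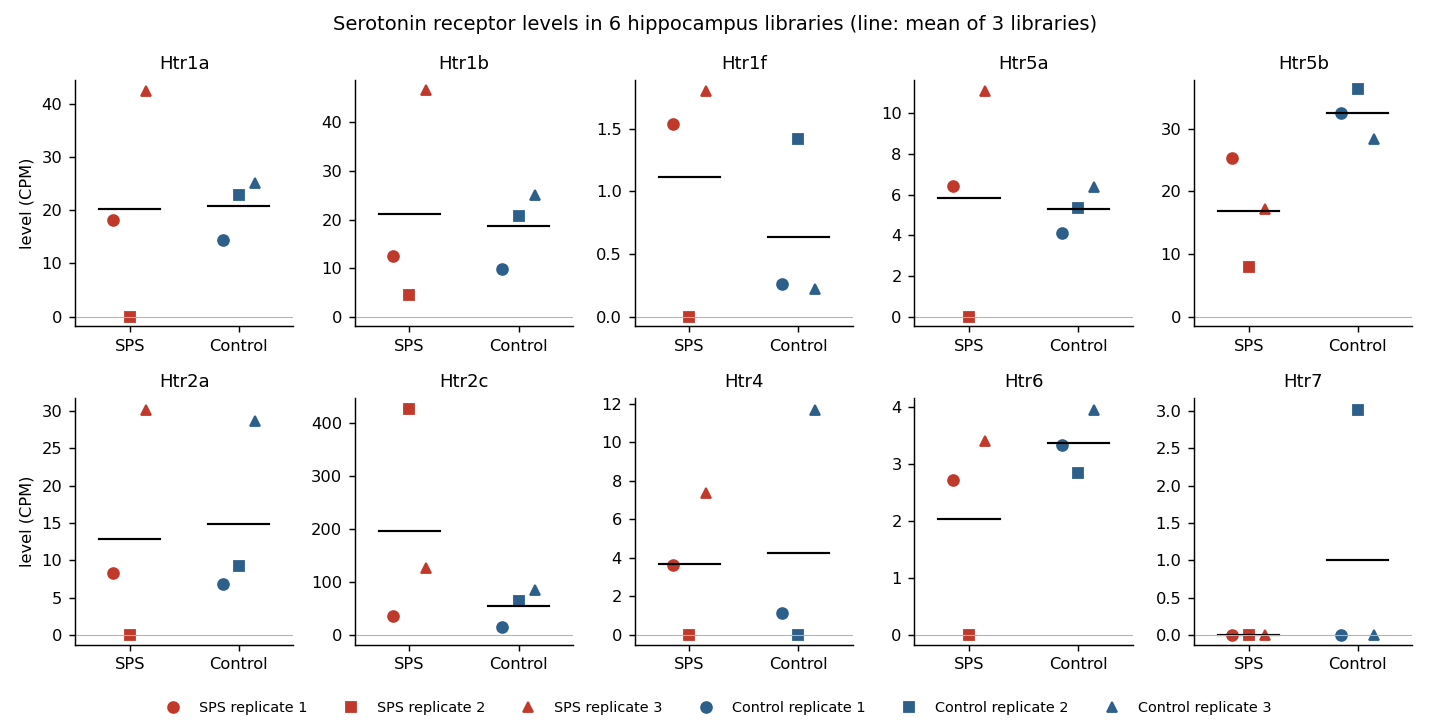
Level of each serotonin receptor gene in CPM (vertical axes, reads scaled to a common library size), with the 3 SPS libraries left and the 3 Control libraries right and a line at the mean of 3. Square red points (SPS replicate 2) lie at 0 for 7 receptors, at 427 CPM for Htr2c, and the groups are apart only for Htr5b, where the 3 SPS points lie between 7.87 and 25.4 CPM and the 3 Control points between 28.4 and 36.4 CPM.

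The libraries differed in depth and in how reads were spread over genes. Depth was 11148532, 4081184 and 5768628 reads in SPS replicates 1, 2 and 3, and 11838770, 5321132 and 4786503 reads in Control replicates 1, 2 and 3. In SPS replicate 2 few genes had low counts: 634 genes had 1 to 9 reads. Control replicate 2 held 1263 such genes and the remaining libraries 1968 to 2597. The commonest count between 5 and 99 reads was 23 in SPS replicate 2. In each other library it was 5, the lowest count searched. Genes with 0 reads numbered 9758 in SPS replicate 2 and 6295 to 8110 in the other libraries. Among genes at a mean of 3 to 10 CPM in the other 5 libraries, 23.8% of 2320 were at 0 in SPS replicate 2, and among those at 10 to 30 CPM it was 5.26% of 3459. Taken the same way, the shares in each other library were 0.224% to 4.97% and 0% to 0.405%, highest in Control replicate 2 for both ranges. The receptors in the lower of these ranges (Htr4, Htr5a and Htr6) were all at 0 in SPS replicate 2. Of the 4 in the upper range, Htr1a and Htr2a were at 0 in it while Htr1b and Htr5b were not. Summed markers of all neurons came to 7718, 3488 and 9116 CPM in SPS replicates 1 to 3, against 7246, 5698 and 9898 CPM in Control replicates 1 to 3. None of the 8 neuronal markers was at 0 in SPS replicate 2, and 7 of the 8 had their lowest level in it, beside 32.3% of all genes tested. Markers of hippocampal fields were present in all libraries, with the dentate gyrus list at 311 to 1108 CPM in SPS and 226 to 1109 CPM in Control, and the CA1 list at 706 to 1041 CPM in SPS and 868 to 1453 CPM in Control. Outside neurons, the oligodendrocyte list was at 33413 CPM in SPS replicate 2 and at 9112 to 16447 CPM in the other libraries, and the ependyma list at 269 CPM and at 37.4 to 79 CPM. By pair, 11 of the 12 oligodendrocyte markers and 7 of the 11 ependyma markers in the table were higher in SPS in all 3 pairs, beside 11.6% of all genes tested. The part of read spread or cell makeup in the receptor values was not tested.

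**Figure D2:**
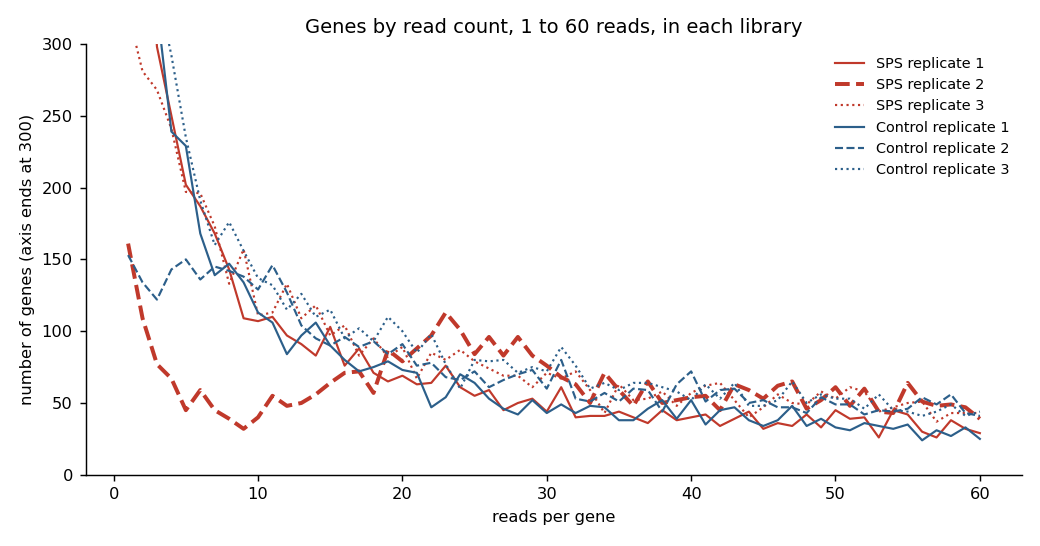
Number of genes (vertical axis, ending at 300) with each number of reads from 1 to 60 (horizontal axis) in the 6 libraries. The thick dashed line of SPS replicate 2 dips below 10 reads and has a second peak at 23 reads, which no other library shows. Control replicate 2 has a shallower dip, with 153 genes at 1 read, 122 at 3 reads and 150 at 5 reads.

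Across the family, the receptors with reads differed in order between libraries. In FPKM, which divides by transcript length and so allows genes to be compared, the mean level over the 6 libraries was 28 for Htr2c, 16.7 for Htr1a, 13.0 for Htr1b and 10.9 for Htr5b. The rest lay lower, with Htr4 at 3.18, Htr5a at 2.78, Htr2a at 2.71, Htr6 at 1.38, Htr1f at 0.648 and Htr7 at 0.176. The step between Htr5b and Htr4 was larger than the SD over the 6 libraries of either gene and held in 6 of 6 libraries. Within the 4 abundant receptors no neighbours differed beyond their SD, and Htr2c owed its place at the top to SPS replicate 2: Htr1a was the higher of the 2 in the other 5 libraries. Among the 6 lower receptors only the step between Htr6 and Htr1f was larger than the SDs.

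Set together, the receptors other than Htr2c came to 45.4, 6.86 and 91.4 FPKM in SPS replicates 1, 2 and 3, against 38.3, 60.8 and 66.2 FPKM in Control replicates 1, 2 and 3. In reads these 9 genes held 866, 53 and 891 in SPS, and 825, 574 and 588 in Control. Htr2c made up 15.1%, 93.5% and 21.9% of the family's summed FPKM in SPS, and 7.99%, 19.9% and 20.1% in Control. SPS replicate 2 had the lowest sum without Htr2c and the highest Htr2c share of the 6 libraries. SPS replicate 3 had the highest sum without Htr2c, and SPS replicate 1 lay within the range of Control in both quantities.

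Among the Gi/o-coupled receptors, Htr1a (ENSRNOG00000010254, chromosome 2, 36246628 to 36247896, plus strand), an inhibitory receptor on raphe neurons and on their hippocampal targets, was at 18.1, 0 and 42.4 CPM in SPS replicates 1, 2 and 3, against 14.3, 22.9 and 25.1 CPM in Control replicates 1, 2 and 3. Both the lowest and the highest value were SPS libraries, and the groups overlapped. The means were 20.1 ± 21.3 CPM in SPS and 20.7 ± 5.72 CPM in Control (SD, n = 3 each), and edgeR gave a log2 fold change of −0.04 ± 1.26 (SE, adjusted p = 1). Without SPS replicate 2 the log2 fold change was 0.54 ± 0.50. For a receptor at 0 in some library, a fold change from means of logs depends on the pseudocount added. For Htr1a, DESeq2 on counts gave −0.05, limma on log2(FPKM + 1) gave −1.09, and limma with a pseudocount of 0.1 gave −2.16.

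Htr1b (ENSRNOG00000013042, chromosome 8, 89129453 to 89130991, minus strand), which sits on axon terminals and restrains transmitter release, was at 12.5, 4.4 and 46.7 CPM in SPS replicates 1 to 3, against 9.8, 20.8 and 25.1 CPM in Control replicates 1 to 3. As with Htr1a, SPS replicate 2 was lowest and SPS replicate 3 highest. The log2 fold change was 0.20 ± 0.83 (SE, adjusted p = 1 in edgeR), and 0.67 ± 0.67 without SPS replicate 2. The value of SPS replicate 2 rested on 19 reads. How many molecules the reads of this library stand for is not known from the files, which bears on its low counts and its zeros for every receptor.

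Htr5a (ENSRNOG00000007066, chromosome 4, 199916 to 209599, plus strand), another Gi/o-coupled receptor of brain, had 6.44, 0 and 11.1 CPM in SPS replicates 1 to 3 and 4.11, 5.32 and 6.38 CPM in Control replicates 1 to 3. Its groups overlapped, with SPS replicate 2 below and both other SPS libraries above every Control value. Its log2 fold change was 0.16 ± 1.27 (SE, adjusted p = 1 in edgeR), and 0.74 ± 0.57 without SPS replicate 2. Htr1f (ENSRNOG00000000716, chromosome 11, 1982113 to 1983513, minus strand), a relative of Htr1b and a target of migraine drugs, had 17, 0 and 10 reads in SPS replicates 1 to 3 and 3, 8 and 1 reads in Control replicates 1 to 3. With 39 reads in all it did not pass the filter of the main test. By limma on log2(FPKM + 1) its log2 fold change was 0.25 ± 0.53 (SE, adjusted p = 1), and in edgeR without both libraries numbered 2 it was 2.66 ± 1.01 (adjusted p = 1; the unadjusted p = 0.0479). Htr1f passed the filter of that last fit only through its 17 and 10 reads in SPS. Its value there was thus selected for a high level in SPS and is no support for a difference.

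Htr5b (ENSRNOG00000002549, chromosome 13, 37479758 to 37492680, minus strand), the close relative of Htr5a that is intact in rodents and disrupted in the human genome, was the 1 receptor whose groups did not overlap. It was at 25.4, 7.87 and 17.1 CPM in SPS replicates 1 to 3, against 32.5, 36.4 and 28.4 CPM in Control replicates 1 to 3. All 3 SPS values lay below all 3 Control values, as they did in 1.4% of the genes tested. No tested receptor had all SPS values above all Control values, beside 1.54% of the genes tested. The means were 16.8 ± 8.77 CPM in SPS and 32.4 ± 4 CPM in Control (SD, n = 3 each), which edgeR put at −0.94 ± 0.49 on the log2 scale (SE, adjusted p = 1; the unadjusted p = 0.0951). In edgeR the difference was −0.61 ± 0.38 without SPS replicate 2 and −1.38 ± 0.57 without SPS replicate 1 (adjusted p = 1 for each; the unadjusted p = 0.16 and 0.0464). With replicate number as a block edgeR gave −1.06 ± 0.44 (adjusted p = 0.967; the unadjusted p = 0.0538). The sign was negative in all 22 alternative fits. These reuse the same libraries, so with groups that do not overlap the shared sign adds no support. In FPKM the 3 SPS values were 11.4, 3.74 and 7.23 and the 3 Control values 14.1, 17.3 and 11.6, so SPS replicate 1 was just below Control replicate 3. An exact permutation test of 3 against 3 samples cannot give a 2-sided p below 0.1.

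Of the Gq-coupled receptors, Htr2a (ENSRNOG00000010063, chromosome 15, 56666012 to 56735382, plus strand), the cortical target of classical hallucinogens, was at 8.26, 0 and 30.2 CPM in SPS replicates 1 to 3 and 6.83, 9.23 and 28.6 CPM in Control replicates 1 to 3. The 2 libraries numbered 3 stood above all others and were close to each other. The log2 fold change was −0.21 ± 1.35 (SE, adjusted p = 1 in edgeR), and 0.37 ± 0.83 without SPS replicate 2.

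Htr2c (ENSRNOG00000030877, chromosome X, 118084890 to 118318039, plus strand), whose transcript is edited by adenosine deaminases, was at 36.9, 427 and 126 CPM in SPS replicates 1 to 3, against 15.7, 64.9 and 84.3 CPM in Control replicates 1 to 3. SPS replicates 2 and 3 were above every Control library, and SPS replicate 1 lay between Control replicates 1 and 2, so the groups overlapped. Within same-numbered pairs SPS was the higher each time, by 1.19, 2.70 and 0.57 in log2(CPM + 1) for pairs 1, 2 and 3, as it was in 11.6% of the genes tested. The means were 197 ± 205 CPM in SPS and 55.0 ± 35.4 CPM in Control (SD, n = 3 each), which edgeR put at 1.84 ± 0.93 on the log2 scale (SE, adjusted p = 1; the unadjusted p = 0.0856). With replicate number as a block edgeR gave 1.5 ± 0.43 (adjusted p = 0.967; the unadjusted p = 0.0146). Without SPS replicate 2 edgeR gave 0.57 ± 0.79, and without SPS replicate 1 it gave 2.32 ± 0.81 (adjusted p = 1 for each; the unadjusted p = 0.501 and 0.0262).

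Set beside Htr2c, Ttr stood out in the same library. Ttr encodes transthyretin, the thyroxine carrier that choroid plexus epithelium makes in bulk (ENSRNOG00000016275, chromosome 18, 15532963 to 15540177, minus strand). It was at 28.2, 31254 and 31.8 CPM in SPS replicates 1 to 3, against 17.2, 22.9 and 113 CPM in Control replicates 1 to 3. Its log2 fold change in edgeR was 7.68 ± 2.8 (SE, adjusted p = 1; the unadjusted p = 0.0267), and it was 1.37 ± 2.49 with the replicate block (adjusted p = 0.967). Leaving out SPS replicate 2 gave −0.76 ± 0.85 (adjusted p = 1 in edgeR). In SPS replicate 2, Ttr was at 1108 times its median in the other 5 libraries and Htr2c at 6.58 times, and the excess over that median was 31226 CPM for Ttr and 362 CPM for Htr2c. Per Htr2c read there were 73.1 Ttr reads in SPS replicate 2, against 0.253 to 1.34 in the other 5 libraries. Of the 22 choroid plexus markers listed, 21 were in the table and 11 had enough reads to be tested. Of the 21, 20 had their highest level in SPS replicate 2. The share of all genes highest there was not counted. The summed level of the 21 was 226, 39410 and 274 CPM in SPS replicates 1 to 3 and 143, 183 and 416 CPM in Control replicates 1 to 3. Ttr alone gave 31254 CPM of the sum in SPS replicate 2. Otx2, a transcription factor of this epithelium, was at 0 in every library. The most abundant others were Enpp2, a lysophospholipase that oligodendrocytes also make, at 3634 CPM in SPS replicate 2 and at most 124 CPM elsewhere, Mfrp, a frizzled-related membrane protein, at 686 against at most 5.94 CPM, and Clic6, a chloride channel protein, at 659 against at most 7.26 CPM. Outside SPS replicate 2, both genes were highest in the libraries numbered 3 and lowest in Control replicate 1 (15.7 CPM for Htr2c, 17.2 CPM for Ttr). Within pair 3 their order differed. SPS replicate 3 had the higher Htr2c (126 CPM, against 84.3 CPM in Control) and the lower Ttr (31.8 CPM, against 113 CPM in Control). Between SPS replicate 1 and Control replicate 2 it differed too, with Htr2c at 36.9 and 64.9 CPM and Ttr at 28.2 and 22.9 CPM.

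**Figure D3:**
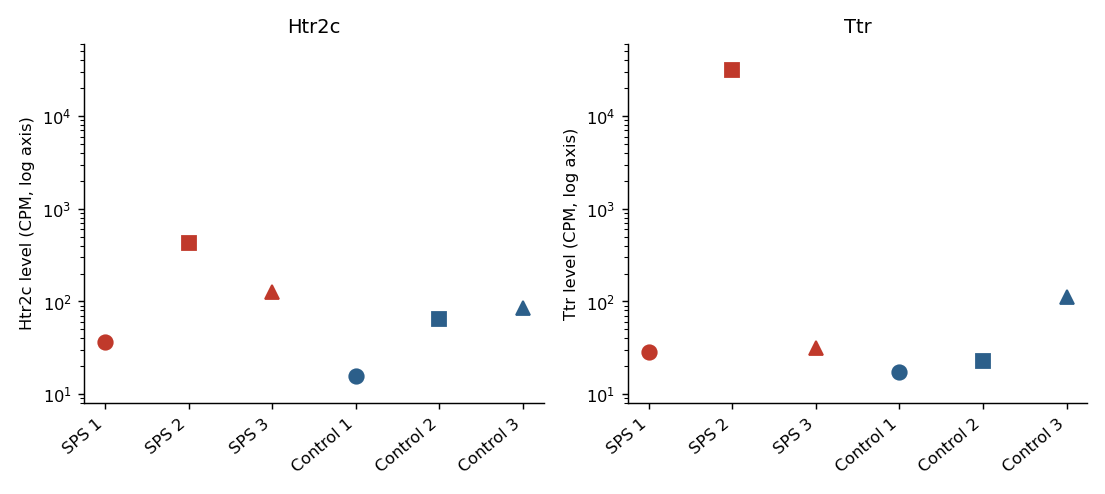
Levels of Htr2c (left panel) and Ttr (right panel) in CPM on the same logarithmic axis, by library, with SPS left of Control. SPS replicate 2 is the highest for both, at 427 CPM for Htr2c and 31254 CPM for Ttr, while the other 5 libraries lie between 15.7 and 126 CPM for Htr2c and between 17.2 and 113 CPM for Ttr.

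The sequences before the annotated starts of Htr2c and Htr5b are printed because these 2 receptors had the smallest p of the family. RefSeq's table for the build GRCr8 held a promoter window, from 250 bases before to 50 bases after the start, for 7 of the 10 receptors. These windows are chrX:115452940-115453239 on the plus strand for Htr2c and chr13:35252537-35252836 on the minus strand for Htr5b, in GRCr8 and not in the build of the expression table. Capitals mark matches on either strand to the CCAAT box (CCAAT) or the GC box (GGGCGG).
Htr2c: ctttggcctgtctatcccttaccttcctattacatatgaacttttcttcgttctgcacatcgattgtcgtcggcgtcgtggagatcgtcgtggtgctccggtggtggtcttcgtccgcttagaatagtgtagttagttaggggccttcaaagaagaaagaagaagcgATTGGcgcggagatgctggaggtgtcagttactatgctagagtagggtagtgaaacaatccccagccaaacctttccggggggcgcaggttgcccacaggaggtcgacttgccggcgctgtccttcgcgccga
Htr5b: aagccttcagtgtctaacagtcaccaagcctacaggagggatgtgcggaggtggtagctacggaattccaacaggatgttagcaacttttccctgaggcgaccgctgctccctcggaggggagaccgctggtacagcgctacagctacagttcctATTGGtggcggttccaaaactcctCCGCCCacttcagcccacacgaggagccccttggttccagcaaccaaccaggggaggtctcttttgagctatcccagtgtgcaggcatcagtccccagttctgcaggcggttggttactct
Htr2c held 1 CCAAT match and no GC box, and Htr5b held 1 of each. CCAAT occurred in 37.5% and GGGCGG in 33.1% of the 33469 windows in the table. The TATA box (TATAAA), the cyclic AMP response element (TGACGTCA), the full palindromic glucocorticoid response element and an OTX-type site (TAATCC) had no match in either window. They occurred in 14.2%, 1.83%, 0.0149% and 7.17% of all windows. The GC content was 53.7% for Htr2c and 57% for Htr5b.

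Of the Gs-coupled receptors, Htr4 (ENSRNOG00000019134, chromosome 18, 57654290 to 57819698, plus strand), which is found on hippocampal principal neurons, was at 3.63, 0 and 7.36 CPM in SPS replicates 1 to 3 and 1.14, 0 and 11.7 CPM in Control replicates 1 to 3. It was at 0 in both libraries numbered 2 and highest in both numbered 3, and its log2 fold change was −0.19 ± 1.8 (SE, adjusted p = 1 in edgeR). Markers of the dentate gyrus were also high in the libraries numbered 3, at 1108 CPM in SPS replicate 3 and 1109 CPM in Control replicate 3, against 226 to 503 CPM in the other 4. Their part in the level of Htr4 was not tested.

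Htr6 (ENSRNOG00000049761, chromosome 5, 157503040 to 157518631, minus strand), a receptor found almost solely in the central nervous system, had 2.72, 0 and 3.41 CPM in SPS replicates 1 to 3 and 3.33, 2.84 and 3.96 CPM in Control replicates 1 to 3. It was the lower in SPS in all 3 pairs, as were Htr5b and 13.2% of the genes tested, but the differences in pairs 1 and 3 were only −0.22 and −0.17 in log2(CPM + 1). Its log2 fold change was −0.70 ± 1.25 (SE, adjusted p = 1 in edgeR), and −0.14 ± 0.70 without SPS replicate 2. Htr7 (ENSRNOG00000018827, chromosome 1, 254530121 to 254671778, minus strand), a receptor of thalamus and hippocampus, had 17 reads in Control replicate 2 and 0 in each of the other 5 libraries. A count of 0 allows up to 3 reads, or 0.263 to 0.694 CPM by library, so Htr7 was not detectable at this depth in SPS. These limits cover counting error only, since reads without molecular identifiers are not independent molecules. Its span overlaps a gene on the other strand (AC080157.1), and the use of strand in counting is not given in the sources used here.

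**Figure D4:**
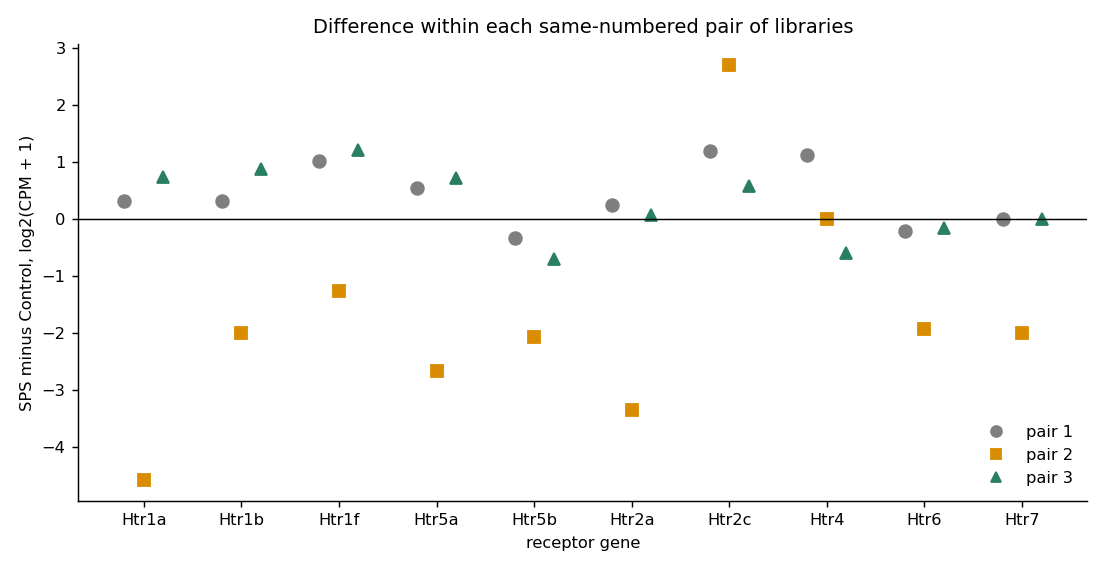
SPS minus Control in log2(CPM + 1) for each receptor (horizontal axis) within libraries of the same number. Pair 2 lies at −1.27 or lower for 8 of the 10 receptors, at 0 for Htr4 and at 2.70 for Htr2c, while pairs 1 and 3 lie between −0.70 and 1.2.

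Taken by pair, the large differences were those of number 2. In that pair the difference, SPS minus Control in log2(CPM + 1), was −4.58 for Htr1a, −3.35 for Htr2a, −2.66 for Htr5a, −2.07 for Htr5b, −2.01 for Htr1b and −1.94 for Htr6. These were 6 of the 8 receptors tested, where 54.4% of all genes tested were lower in SPS in pair 2. The same 6 had their lowest level of all libraries in SPS replicate 2, as did 32.3% of the genes tested. In pairs 1 and 3, 5 of the 8 (Htr1a, Htr1b, Htr2a, Htr2c and Htr5a) were higher in SPS both times, beside 25.1% of all genes tested, a count chosen after the values were seen. Those differences were between 0.07 and 1.19. Without both libraries numbered 2 the median log2 fold change of the 8 receptors was 0.35 and that of all genes −0.02, and no receptor passed (adjusted p = 1 in edgeR).

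The 3 genes whose pattern over the 6 libraries was most like that of each receptor were found among 11867 genes by Pearson correlation of log2(CPM + 1), as a description. For Htr2c these were Fam149a (r = 0.998), Epb41 (0.997), which encodes a membrane skeleton protein, and Efcab1 (0.996), a protein of motile cilia, and 58 genes had an r above 0.95. For Htr5b they were Zfp777 (0.994), a zinc finger protein, Xpa (0.994), a DNA repair protein, and Speg (0.991), a kinase. For Htr1a they were Zfp617, Ipo11 and Ppara (each 0.997), all of which were at 0 CPM in SPS replicate 2. For Htr4, low in both libraries numbered 2, they were Ksr1 (1.000), Intu and Zgrf1 (0.999 each). The most like gene was Zfp518a for Htr2a, Ormdl3 for Htr6, Rfx4 for Htr5a and Ahnak2 for Htr1b. These 4 receptors had 525, 417, 341 and 125 genes above an r of 0.95 in that order. All such genes share the 6 libraries and their depths.

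Around the receptors, the enzymes and carriers of serotonin itself were mostly low, and none passed the test. The synthetic enzyme of neurons, Tph2, had 13, 0 and 30 reads in SPS replicates 1 to 3 and 37, 0 and 16 reads in Control replicates 1 to 3. The serotonin transporter Slc6a4 had 19 reads in SPS replicate 3 and 0 elsewhere. The peripheral synthetic enzyme Tph1 had at most 4 reads and the vesicular carrier Slc18a2 at most 11 reads in any library. The decarboxylase Ddc was at 2.93 ± 2.70 CPM in SPS and 5.50 ± 1.24 CPM in Control (SD, n = 3 each), lower in SPS in all 3 pairs, as were 13.2% of the genes tested. The breakdown enzyme Maoa was at 37.3 ± 10.3 CPM in SPS and 46.2 ± 5.51 CPM in Control, Maob at 66.2 ± 8.32 and 81.8 ± 19.4 CPM in the same order, and Aldh2, which clears the aldehyde, at 90.8 ± 83.5 CPM in SPS and 76.4 ± 62.1 CPM in Control. Of this list 5 of 8 genes were tested and 0 passed in either direction, with a median log2 fold change of −0.30.

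Of the other serotonin receptor genes, Htr3a, a subunit of the ion channel receptor found on interneurons, was at 4.26, 0 and 7.90 CPM in SPS replicates 1 to 3 and 5.16, 8.69 and 7.26 CPM in Control replicates 1 to 3, again with SPS replicate 2 at 0 (−0.78 ± 1.23 on the log2 scale, SE, adjusted p = 1 in edgeR). The channel subunit Htr3b had 0 reads in all 6 libraries, the receptor Htr1d at most 4 and Htr2b at most 1. The enzymes that edit RNA, Adar, Adarb1 and Adarb2, had log2 fold changes of 0.26 ± 0.47, −0.11 ± 0.42 and −0.07 ± 1.06.

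In the signalling lists downstream, 0 genes passed in either direction among 12 of Gi/o, 11 of Gq and 14 of Gs signalling (15 rows, since Gnas has 2), nor among 14 receptor partners. The median log2 fold changes were −0.04, −0.16, −0.06 and 0.05 in that order. The genes with the smallest p were Rgs4, an accelerator of G-protein switch-off (−1.09 ± 0.70), and the inhibitory subunit Gnai1 (0.37 ± 0.33) for Gi/o. For Gq they were Rgs2, a regulator of Gq (−0.67 ± 0.60), and the subunit Gna11 (−0.39 ± 0.42), and for Gs the stimulatory subunit Gnal (0.56 ± 0.56) and 1 of 2 rows of Gnas (−0.29 ± 0.43). Among partners they were S100a10, an adaptor that binds Htr1b and Htr4 (−1 ± 0.57), and the receptor kinase Grk5 (0.91 ± 0.65). Each is a log2 fold change with its SE, and every adjusted p in edgeR was 1. Rgs4 was at 336 CPM in Control replicate 2 and at 57.6 to 89.0 CPM in the other 5 libraries.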

How the data were processed

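Hippocampal total RNA was freed of ribosomal RNA and went through a strand-keeping library kit before sequencing over 150 cycles, per the labels' protocols. CASAVA 1.8, HISAT2 and the human build hg19 are named in the submitters' processing notes, although the gene identifiers are rat. Not given in the sources used here: the rat build, its annotation, the quantifier and whether strand was used. For each library the authors deposited FPKM and, per the file headers, an estimated count for every gene. The deposited estimated counts were whole multiples, to within 0.05 reads, of 1 step per library in 99.3% to 99.6% of values above 0. They were divided by that step (0.6137 to 1.786) and rounded to whole reads. In all 22062 rows the length column equalled end minus start, so starts were taken to count from 0 and are printed counting from 1, with no build.

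The main test was edgeR 4.0.16 in R 4.3.3 (TMM scaling, the tool's own filter, quasi-likelihood fit on group, Benjamini-Hochberg adjustment over 12441 genes). The SE was the absolute log2 fold change divided by the square root of F. DESeq2 1.42.0, limma 3.58.1 on log2(FPKM + 1) for a mean FPKM of at least 0.5, other scalings and filters, a replicate block, and fits without single libraries or numbers were alternatives. Deviations from the group means correlated at 0.41, 0.37 and 0.67 between same-numbered libraries, all above 0.1. Between differently numbered libraries they correlated at −0.5 to 0.16. Deviations cancel within each group, so these correlations are tied together and do not establish pairing by number. The labels do not say what a number shares. The main fit carried no block, and the block was an alternative. Named genes were the members, Ttr, the serotonin receptor, synthesis and editing lists, the 2 smallest p of each other list, the 4 most abundant choroid plexus markers and the 3 genes most like each member. The members and lists were chosen with earlier results of these data known.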

Additional observations from a re-analysis of the deposited data

How the results depend on the processing

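The counts of 0 genes and 0 receptors past an adjusted p of 0.05 held in all 22 alternatives, with 11 to 297 genes and 0 to 2 receptors at an unadjusted p under 0.05. With the replicate block, edgeR put 172 genes and 1 receptor, Htr2c, under it, and limma put 297 genes and 2 receptors, Htr2c and Htr5b, under it. The block changed no call by adjusted p. The signs of Htr2c, Htr5b and Htr6 were the same in every alternative that gave a value. All alternatives reuse the same libraries, and for Htr5b the shared sign follows from groups that do not overlap. Htr2c ranged from 0.57 to 2.32 on the log2 scale when single libraries were left out. Other signs turned, none of them of a called value, and the cause was not tested. With the replicate block in edgeR the log2 fold changes were −0.21 for Htr1b, 0.46 for Htr4 and −0.54 for Htr5a. By limma on log2(FPKM + 1), with or without a filter or the block, they were −0.23, 0.18 and −0.26 in the same order, and with a pseudocount of 0.1 they were −0.29, 0.34 and −1.14. Leaving out both libraries numbered 2 gave 0.60 for Htr1a, 0.10 for Htr2a and −1.12 for Ttr. Leaving out both numbered 3 gave −0.84 for Htr1b and −0.52 for Htr5a, and both numbered 1 gave −0.06 for Htr5a. Leaving out single libraries gave −1.16 to 0.54 for Htr1a, −1.12 to 0.67 for Htr1b, −1.79 to 0.65 for Htr2a, −1.16 to 2.55 for Htr4, −0.67 to 0.74 for Htr5a and −0.76 to 9.03 for Ttr. A filter of 10 reads in every library kept only Htr1b, Htr2c and Htr5b.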
